A study of Homo sapiens with 4 samples.

Results

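The genes described here encode the enzymes that make purines, pyrimidines and deoxynucleotides, the building blocks of RNA and DNA. They are the 39 genes of a list of such enzymes whose symbols name rows of the deposited expression table, and all 39 were found among its 38972 rows. The libraries are from HEK293T, a cell line derived from human embryonic kidney, and were read by RNA sequencing. There are 2 labelled oeRNH1, for overexpression of RNase H1, an enzyme that cuts RNA paired with DNA, and 2 labelled oeFlag, for overexpression of Flag, a peptide tag. The vector, the time after its introduction and any selection of the cells were not given in the sources used here.

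Cells build purine rings step by step on phosphoribosyl pyrophosphate (PRPP) and pyrimidine rings before joining them to PRPP, the de novo routes. Salvage enzymes recover free bases and nucleosides instead. Ribonucleotide reductase turns ribonucleotides into deoxynucleotides, thymidylate synthase adds the methyl group of thymidine, and nucleotide kinases raise the products to triphosphates. Several genes of the de novo routes are known targets of the transcription factor MYC, and several deoxynucleotide genes are transcribed with the entry into S phase.

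RNASEH1, which encodes RNase H1, had 29.9 and 29.7 TPM in the libraries labelled oeRNH1, against 32.1 and 32.8 TPM in those labelled oeFlag, so the table does not show the overexpression that the label names (log2 fold change -0.12 ± 0.06, standard error, limma adjusted p = 0.260). Whether the labels are wrong, or a transgene was present whose reads were not counted for RNASEH1, was not tested. Groups are therefore called by their labels, and every direction is that of the libraries labelled oeRNH1. TPM is a share of the transcripts of a library, scaled by transcript length, and it does not preserve how many reads were sequenced. Over the 15651 genes averaging 1 TPM or more, which were tested, log2 values correlated at 0.99 within each group and at 0.98 across groups. All 8 HEK293T markers examined were detected, PAX2 at 1.29 to 1.86 TPM being the lowest, while the summed TPM of 4 endothelial markers lay between 0.58 and 1.30, that of 8 carcinoma epithelium markers between 4.62 and 8.07, and that of 7 fibroblast markers between 15.5 and 20.4. Most of the fibroblast sum was COL1A1, and the blood markers PTPRC and HBB were at or near 0. Of the HEK293T markers 3 were called lower and 1 higher, and IRS4 had 107 and 99.9 TPM in the libraries labelled oeRNH1, against 217 and 218 TPM in those labelled oeFlag; its part in the results was not tested. The labels do not say whether libraries of a group came from separate cultures, and p-values therefore measure only how far these libraries spread, possibly for technical reasons. In bulk RNA, fewer cells of a type and less RNA per cell cannot be told apart.

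Calls in the de novo routes were all lower in the libraries labelled oeRNH1, at 4 of 13 purine and 2 of 5 pyrimidine genes, while those in deoxynucleotide synthesis were all higher, at 3 of 7 genes. Salvage split, with 3 called higher and 4 called lower of 10, and of 4 nucleotide kinases 2 were called lower. A call here is a Benjamini-Hochberg adjusted p under 0.05 in limma, a linear model fitted to log2(TPM + 1) of all tested genes. In all, 18 of the 39 genes were called, which is 46.2% of them, 6 higher and 12 lower. Among all tested genes 11.8% were called, 6.3% higher and 5.54% lower. The median level of the list was 74.6 TPM. Among genes averaging 50 TPM or more, a level chosen after the data were seen, 11 of 25 genes of the list were called, 3 higher and 8 lower, against 19.9% of all genes at that level (11.4% higher and 8.49% lower). The groups did not overlap in 12 genes that were higher and 19 that were lower, and overlapped in 8; of all tested genes 60.7% did not overlap, 31.3% higher and 29.4% lower.

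Median log2 fold changes were -0.20 for de novo purine synthesis (range -0.75 to 0.07), -0.21 for de novo pyrimidine synthesis (-0.35 to -0.02), 0.13 for deoxynucleotide synthesis (0.04 to 0.31), 0.12 for salvage (-0.55 to 0.42) and -0.11 for nucleotide kinases (-0.21 to 0.09). The median over all tested genes was 0.00. PFAS and UCKL1 were the only genes of the list past 0.50 in size. No gene of the list was called when low values were not filtered, when variances followed no intensity trend, or when any single library was left out. With all 4 libraries, 23 of the 39 genes had an unadjusted limma p under 0.05, against 4906 of the 15651 tested genes.

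**Figure D1:**
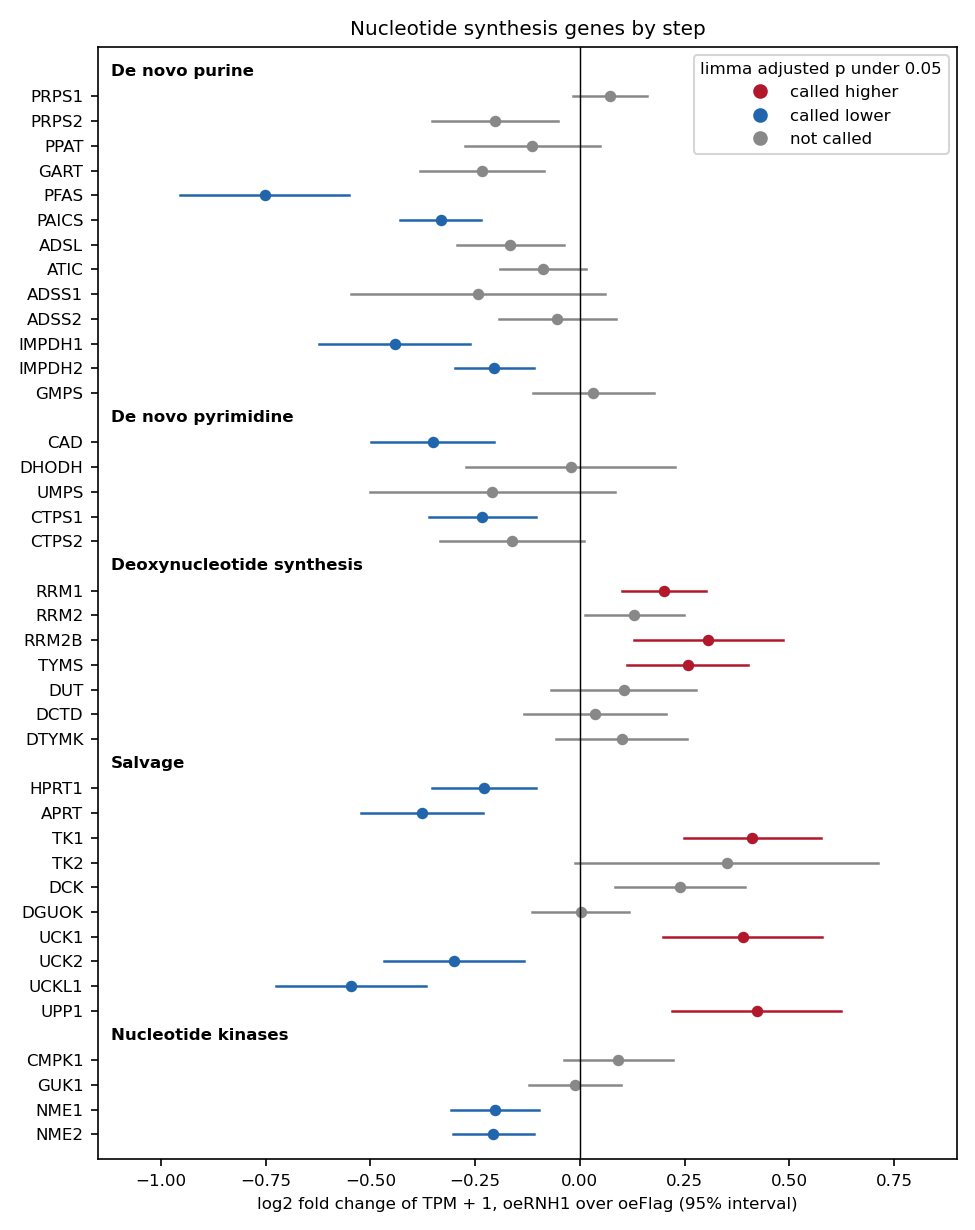
Log2 fold change (TPM + 1, oeRNH1 over oeFlag) of each of the 39 genes with its 95% interval, ordered by step, coloured by whether limma called it. All 7 genes of deoxynucleotide synthesis lie right of 0 and all 5 of de novo pyrimidine synthesis lie left of it, while salvage genes lie on both sides.

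Of the transcripts for de novo purine synthesis, that of PFAS fell most. PFAS encodes the enzyme that turns formylglycinamide ribonucleotide into its amidine in the middle of the route. PFAS (chromosome 17, 8247618 to 8270491, plus strand, GENCODE release 29 on GRCh38) had 21.2 and 22.6 TPM in the libraries labelled oeRNH1, against 39.7 and 35.5 TPM in those labelled oeFlag. The groups were well apart, and PFAS fell by 0.75 ± 0.08 on the log2 scale (standard error, limma adjusted p = 0.0101), a decrease of 41.8% in mean TPM that was the largest of the 39 genes. PAICS, a bifunctional enzyme that acts further down the route (chromosome 4, 56435741 to 56464579, plus strand), had 265 and 257 TPM, against 333 and 325 TPM. Both libraries labelled oeRNH1 were lower, and PAICS fell by 0.33 ± 0.04 (limma adjusted p = 0.0117).

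The remaining enzymes up to inosine monophosphate, IMP, were not called, although all of them had negative estimates. PPAT, the amidotransferase that commits PRPP to the route, had 68.4 and 62.0 TPM in the libraries labelled oeRNH1, against 71.9 and 69.2 TPM in those labelled oeFlag (log2 -0.11 ± 0.07, limma adjusted p = 0.295). GART, which carries several activities of the route on one protein, had a log2 fold change of -0.23 ± 0.06 (limma adjusted p = 0.0590), at 110 and 111 TPM against 137 and 123 TPM. Exons of GART overlap those of SON on the other strand, at up to 275 bases, and the strandedness of the counting is not given in the sources used here. ADSL, the lyase used both before IMP and after it, had -0.17 ± 0.05, and ATIC, which closes the purine ring, had -0.09 ± 0.04 (limma adjusted p = 0.0905 and 0.214). The groups did not overlap in any of these 4 genes, which also holds for 60.7% of all tested genes.

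PRPP itself is made by PRPS1 and PRPS2, whose estimates had opposite signs. PRPS1 had 377 and 381 TPM in the libraries labelled oeRNH1, against 357 and 364 TPM in those labelled oeFlag (log2 0.07 ± 0.04, limma adjusted p = 0.238). PRPS2 had 43.3 and 42.9 TPM, against 48.2 and 51.3 TPM (log2 -0.20 ± 0.06, limma adjusted p = 0.0854). Neither was called. The 95% interval of PRPS1 reached from -0.02 to 0.16.

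Past IMP, transcripts for the first enzyme of the guanine branch were lower. IMPDH1 and IMPDH2 encode the isozymes of IMP dehydrogenase, the rate-limiting enzyme of guanine nucleotide synthesis. IMPDH1 (chromosome 7, 128392277 to 128410252, minus strand) had 41.5 and 37.1 TPM in the libraries labelled oeRNH1, against 54.9 and 52.4 TPM in those labelled oeFlag, and fell by 0.44 ± 0.07 (limma adjusted p = 0.0234). IMPDH2 (chromosome 3, 49024325 to 49029408, minus strand), the more abundant isozyme, had 235 and 239 TPM, against 272 and 276 TPM, and fell by 0.20 ± 0.04 (limma adjusted p = 0.0301). All libraries labelled oeRNH1 were below those labelled oeFlag for both isozymes. IMPDH1 lost its call after a correction for GC content (adjusted p = 0.0515). GMPS, which completes GMP, was not called (log2 0.03 ± 0.06, limma adjusted p = 0.751), and its groups overlapped at 127 and 133 TPM against 122 and 132 TPM. The adenylosuccinate synthases of the adenine branch were not called. ADSS2 had 70.2 and 66.9 TPM in the libraries labelled oeRNH1, overlapping the 69.5 and 73.0 TPM of those labelled oeFlag (-0.05 ± 0.06). ADSS1, the isozyme known from muscle, had 6.19 and 6.26 TPM, against 6.91 and 8.24 TPM (-0.24 ± 0.12).

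PPAT and PAICS are neighbours on opposite strands, head to head, with 136 bases between the RefSeq starts at 56435615 and 56435752 on chromosome 4, and their sequence is shown because a shared stretch lies before a gene that was called lower and a gene that was not. The stretch outside annotated exons (chr4:56435616-56435740, plus strand, RefSeq promoter table on GRCh38.p14) carries 3 copies of GGGCGG, the core of SP1 sites, in capitals. An E-box, CACGTG in capitals, follows 40 bases after the PAICS start (chr4:56435785-56435801).
PPAT-PAICS: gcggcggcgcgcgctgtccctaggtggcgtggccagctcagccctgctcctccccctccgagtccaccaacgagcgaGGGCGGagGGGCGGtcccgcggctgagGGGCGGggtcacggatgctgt
PAICS E-box: tttgctgCACGTGgaaa
The PFAS promoter (chr17:8249039-8249285, plus strand, RefSeq on GRCh38.p14) is shown because PFAS fell most, a choice made after its values were seen, with 1 copy of GGGCGG in capitals. No E-box letters lie in its window.
PFAS: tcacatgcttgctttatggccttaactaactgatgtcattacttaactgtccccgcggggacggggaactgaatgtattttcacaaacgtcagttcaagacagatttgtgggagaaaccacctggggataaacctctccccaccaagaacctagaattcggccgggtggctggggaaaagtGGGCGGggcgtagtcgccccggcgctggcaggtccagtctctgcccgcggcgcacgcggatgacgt

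Promoter windows of 300 bases, 250 of them before the start, were held for 36 of the 39 genes and searched on both strands. CACGTG was in the windows of 7 of these 36 genes, which are ATIC, DCK, DHODH, NME1, PAICS, PPAT and UCKL1. That is 12.3% of the windows of the 36 genes, against 7.26% of all windows. The E-box shown after the PAICS start also lies in the PPAT window, so the same letters were counted for both genes. By call, CACGTG was in 3 of 11 genes called lower, 0 of 5 called higher and 4 of 20 not called. Over all genes with a window it was in 2396 of 27305. Genes of the list had more windows each, with 57 windows for 36 genes against 35116 for 27305. The E2F letters TTTCGCGC, TTTGGCGC, TTTCCCGC or TTTGCCGC were in windows of DCK, DUT, GART, PRPS2 and TYMS, or 8.77% of windows against 3.31% of all. GGGCGG was in 71.9% of the genes' windows against 44.95% of all, CCAAT in 24.6% against 34.6%, and GCATGCGC, letters of the NRF1 motif, in 3.51% against 3.05%. These are matches of letters only, and binding was not measured. The windows of all 27305 genes were not limited to the 15651 genes tested here, so the shares compare unlike sets.

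Of the transcripts for de novo pyrimidine synthesis, those of CAD and CTPS1, of its first and last steps, were called lower. CAD, the trifunctional protein of the first steps (chromosome 2, 27217390 to 27243943, plus strand), had 39.4 and 37.5 TPM in the libraries labelled oeRNH1, against 49.3 and 49.3 TPM in those labelled oeFlag. The groups were apart, and CAD fell by 0.35 ± 0.06 (limma adjusted p = 0.0246). CTPS1, which turns UTP into CTP (chromosome 1, 40979335 to 41012565, plus strand), had 104 and 99.8 TPM, against 117 and 123 TPM, and fell by 0.23 ± 0.05 (limma adjusted p = 0.0420). Its isozyme CTPS2 was not called, at 21.4 and 20.9 TPM against 23.8 and 23.7 TPM (-0.16 ± 0.07, limma adjusted p = 0.180).

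The middle of the pyrimidine route was not called. DHODH, the mitochondrial dihydroorotate dehydrogenase, had 10.1 and 9.95 TPM in the libraries labelled oeRNH1, within the 10.8 and 9.61 TPM of those labelled oeFlag (log2 -0.02 ± 0.10, 95% interval -0.27 to 0.23). UMPS, which makes uridine monophosphate, had 87.2 and 89.4 TPM, against an uneven 117 and 89.4 TPM (log2 -0.21 ± 0.12, limma adjusted p = 0.290). The lower of the libraries labelled oeFlag lay within the range of those labelled oeRNH1.

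Transcripts for the large subunit and for a small subunit of ribonucleotide reductase, which makes deoxynucleotides, were called higher. RRM1, the large subunit (chromosome 11, 4094707 to 4138876, plus strand), had 197 and 195 TPM in the libraries labelled oeRNH1, against 172 and 169 TPM in those labelled oeFlag, and rose by 0.20 ± 0.04 (limma adjusted p = 0.0360). RRM2B, the small subunit used outside S phase and for mitochondrial DNA, had 35.8 and 34.7 TPM, against 29.6 and 27.1 TPM, and rose by 0.31 ± 0.07 (limma adjusted p = 0.0484). Both genes were higher in each library labelled oeRNH1. RRM2, the S phase small subunit, was not called, at 136 and 141 TPM against 124 and 129 TPM (log2 0.13 ± 0.05, limma adjusted p = 0.130). Its groups did not overlap, as in 60.7% of all tested genes.

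Of the transcripts for thymidylate synthesis, that of TYMS, thymidylate synthase (chromosome 18, 657604 to 673578, plus strand), was called higher. TYMS had 145 and 149 TPM in the libraries labelled oeRNH1, against 129 and 117 TPM in those labelled oeFlag, and rose by 0.26 ± 0.06 (limma adjusted p = 0.0447). ENOSF1, whose exons overlap TYMS on the other strand by up to 719 bases, went the other way, at 15.6 and 17.9 TPM against 24.9 and 25.9 TPM (log2 -0.58 ± 0.09, limma adjusted p = 0.0204). DUT, the dUTPase (0.10 ± 0.07), DCTD, dCMP deaminase (0.04 ± 0.07), and DTYMK, thymidylate kinase (0.10 ± 0.06), were not called. All 3 calls of deoxynucleotide synthesis were lost after GC correction, where RRM1 had an adjusted p of 0.0597, RRM2B of 0.0824 and TYMS of 0.0557 (limma). Their log2 fold changes were then 0.15 for RRM1, 0.23 for RRM2B and 0.26 for TYMS, and the median of the step was 0.15. RRM2B and TYMS also missed the threshold under quantile normalization (adjusted p = 0.0596 and 0.0726) and median-of-ratios scaling (0.0560 and 0.0591).

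**Figure D2:**
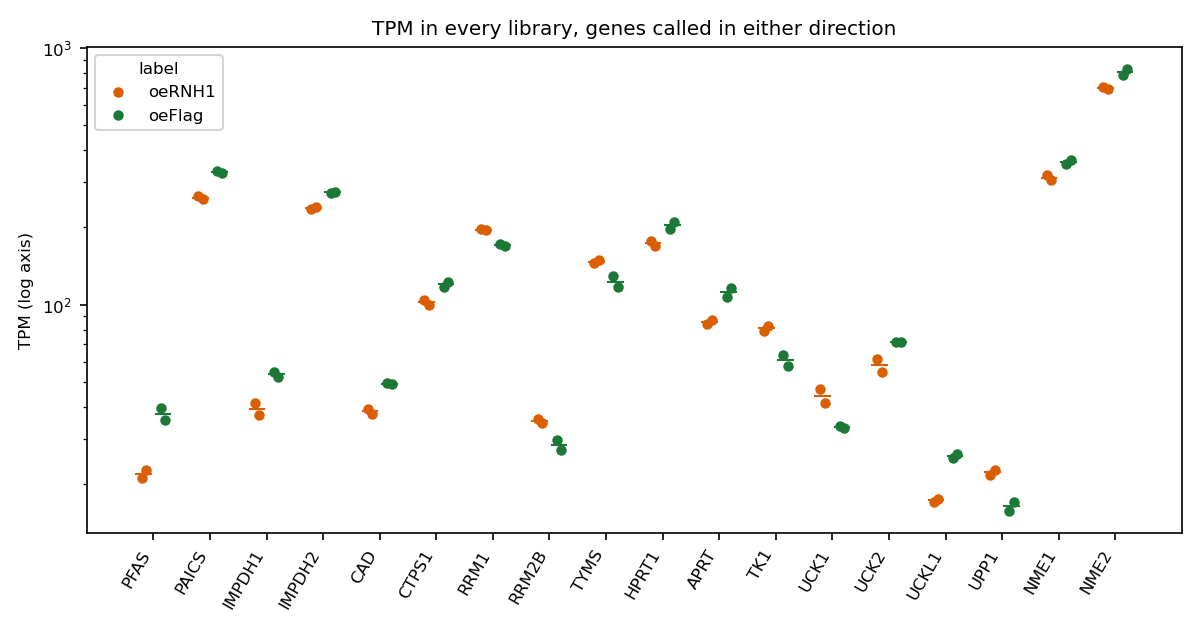
TPM on a log axis in every library for the 18 genes called in either direction, oeRNH1 points left of oeFlag points, with a line at each group mean of 2 libraries. In none of the 18 genes do the groups overlap, which also holds for 60.7% of all tested genes. PFAS (21.2 and 22.6 TPM against 39.7 and 35.5 TPM) shows the widest gap.

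Transcripts for both phosphoribosyltransferases of purine base salvage, which join free bases to PRPP, were lower. APRT, which salvages adenine (chromosome 16, 88809339 to 88811944, minus strand), had 84.0 and 87.4 TPM in the libraries labelled oeRNH1, against 107 and 116 TPM in those labelled oeFlag, and fell by 0.38 ± 0.06 (limma adjusted p = 0.0210). HPRT1, which salvages hypoxanthine and guanine (chromosome X, 134460153 to 134520513, plus strand), had 178 and 169 TPM, against 198 and 210 TPM, and fell by 0.23 ± 0.05 (limma adjusted p = 0.0419). The groups did not overlap in either gene.

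Among transcripts for thymidine salvage, TK1 was called higher. TK1, the cytosolic thymidine kinase of S phase (chromosome 17, 78174075 to 78187233, minus strand), had 79.3 and 82.5 TPM in the libraries labelled oeRNH1, against 63.7 and 57.6 TPM in those labelled oeFlag. It rose by 0.41 ± 0.07 (limma adjusted p = 0.0221), an increase of 33.4% in mean TPM. After GC correction TK1 kept its call, at 0.51 (adjusted p = 0.0203). The other deoxynucleoside kinases were not called. TK2, the mitochondrial thymidine kinase, had 10.9 and 8.88 TPM against 8.37 and 6.75 TPM (0.35 ± 0.15, limma adjusted p = 0.170), and DCK, deoxycytidine kinase, had 48.7 and 45.5 TPM against 40.1 and 39.4 TPM (0.24 ± 0.06, limma adjusted p = 0.0629). DCK passed when testing was limited to a mean of 5 TPM or more (adjusted p = 0.0431). DGUOK, the mitochondrial deoxyguanosine kinase, had 110 and 110 TPM against 112 and 108 TPM (0.00 ± 0.05, 95% interval -0.11 to 0.12).

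The uridine-cytidine kinases, which salvage uridine and cytidine, moved in opposite directions. UCK1 (chromosome 9, 131523801 to 131531268, minus strand) had 47.0 and 41.4 TPM in the libraries labelled oeRNH1, against 33.8 and 33.2 TPM in those labelled oeFlag, and rose by 0.39 ± 0.08 (limma adjusted p = 0.0345). UCK2 (chromosome 1, 165827531 to 165911618, plus strand) had 61.3 and 54.8 TPM, against 71.6 and 71.6 TPM, and fell by 0.30 ± 0.07 (limma adjusted p = 0.0437). The libraries of each group stood apart in both genes. UCKL1, a homologue of these kinases (chromosome 20, 63939829 to 63956415, minus strand), had 16.99 and 17.6 TPM, against 25.3 and 26.1 TPM, and fell by 0.55 ± 0.07 (limma adjusted p = 0.0156). UPP1, uridine phosphorylase (chromosome 7, 48088628 to 48108733, plus strand), which splits uridine into uracil and ribose phosphate, had 21.7 and 22.8 TPM, against 15.7 and 17.03 TPM, and rose by 0.42 ± 0.08 (limma adjusted p = 0.0325), the largest increase of the 39 genes. TMCO1, whose exons overlap UCK2 on the other strand by up to 225 bases, went the other way from UCK2 (268 and 257 TPM against 221 and 231 TPM, log2 0.21 ± 0.05, limma adjusted p = 0.0385).

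Upstream sequences of UCK1 (chr9:131531269-131531513, minus strand) and UCK2 (chr1:165827364-165827469, plus strand), from RefSeq on GRCh38.p14 and trimmed to bases outside GENCODE exons, are shown because these paralogues went opposite ways. They were chosen after the values were seen. Capitals mark GCATGCGC in UCK1 and GGGCGG in UCK2. The full windows also hold GGGCGG for UCK1 and CCAAT for UCK2, outside the bases printed, so GGGCGG is in the windows of both.
UCK1: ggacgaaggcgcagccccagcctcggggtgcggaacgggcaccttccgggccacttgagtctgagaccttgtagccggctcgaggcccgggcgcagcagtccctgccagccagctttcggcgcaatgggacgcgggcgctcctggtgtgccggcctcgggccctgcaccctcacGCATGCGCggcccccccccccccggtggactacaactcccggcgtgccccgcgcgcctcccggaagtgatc
UCK2: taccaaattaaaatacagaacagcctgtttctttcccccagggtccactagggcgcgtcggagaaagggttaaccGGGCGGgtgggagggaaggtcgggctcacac
GCATGCGC was found in 2 of the 36 genes, UCK1, which rose, and CTPS1, which fell.

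Among the nucleotide kinases, NME1 and NME2 were lower. They encode the main nucleoside diphosphate kinases, which make triphosphates, and NME2 had the highest level of the 39 genes. NME2 (chromosome 17, 51165435 to 51171747, plus strand) had 708 and 690 TPM in the libraries labelled oeRNH1, against 786 and 828 TPM in those labelled oeFlag, and fell by 0.21 ± 0.04 (limma adjusted p = 0.0310). NME1 (chromosome 17, 51153536 to 51162428, plus strand) had 320 and 305 TPM, against 354 and 366 TPM, and fell by 0.20 ± 0.04 (limma adjusted p = 0.0380). NME2 lost its call after GC correction (adjusted p = 0.0784). The coding sequences of these neighbours are 80.9% identical over aligned bases, and a readthrough gene, NME1-NME2, shares exons with both, so their values are uncertain. NME1-NME2 had 32.1 and 30.7 TPM, against 37.4 and 46.7 TPM (log2 -0.40 ± 0.11, limma adjusted p = 0.0670). CMPK1, UMP-CMP kinase (0.09 ± 0.05), and GUK1, guanylate kinase (-0.01 ± 0.05), were not called.

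Because TPM is scaled by length, isozymes can be set against each other within a library. UCK2 exceeded UCK1 by 0.38 and 0.39 on the log2 scale in the libraries labelled oeRNH1, against 1.06 and 1.09 in those labelled oeFlag, a difference of -0.69. That was the largest shift of 9 pairs compared. PRPS1 exceeded PRPS2 by 3.09 and 3.12, against 2.86 and 2.80, a shift of 0.27. DCK was below DGUOK at -1.16 and -1.26, against -1.46 and -1.43, a shift of 0.24. IMPDH1 was below IMPDH2 at -2.48 and -2.66, against -2.29 and -2.37, a shift of -0.24. In these 4 pairs the groups did not overlap. Shifts were 0.19 for ADSS2 over ADSS1, -0.18 for RRM2 over RRM2B and -0.07 for CTPS1 over CTPS2, again without overlap, and 0.06 for TK1 over TK2 and 0.00 for NME1 over NME2, with overlap. Leaving out a library moved several shifts by over 1.5 times. Without oeFlag replicate 2 the shift was 0.11 for ADSS2 over ADSS1, -0.083 for RRM2 over RRM2B and -0.035 for CTPS1 over CTPS2, and without oeFlag replicate 1 it was -0.27 for RRM2 over RRM2B and -0.11 for CTPS1 over CTPS2. Without oeRNH1 replicate 2 it was -0.15 for IMPDH1 over IMPDH2. The shift of UCK2 over UCK1 lay between -0.70 and -0.68 with any one library left out. With 2 libraries a group the exact permutation test (two-sided) cannot go below p = 0.333, the value of each pair without overlap. Coding identity over aligned bases lay between 57.9% for TK1 and TK2 and 80.9% for NME1 and NME2, and was 73.2% for UCK2 and UCK1.

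**Figure D3:**
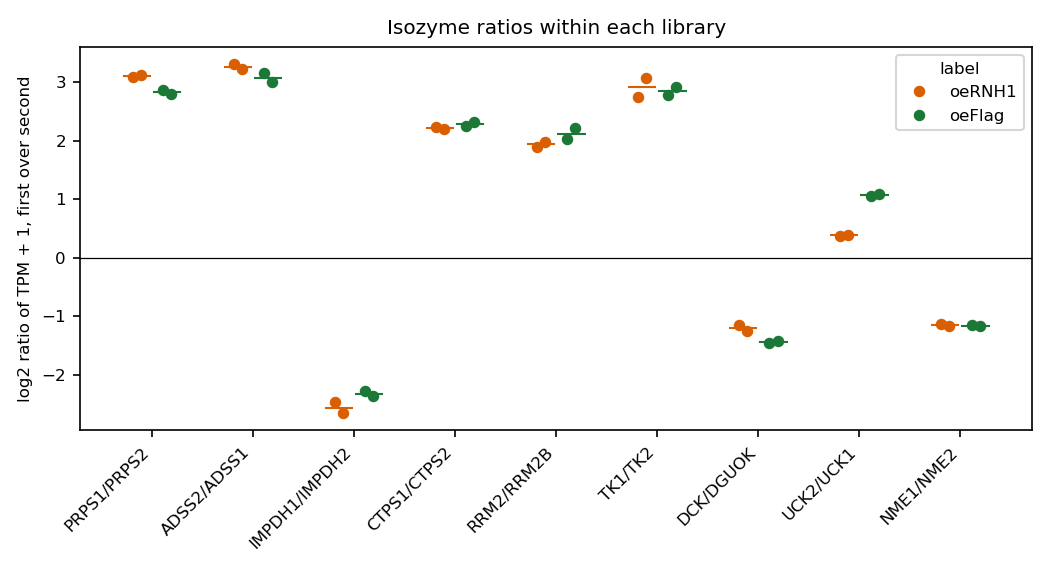
Log2 ratio of TPM + 1 of the first gene over the second in each library for 9 isozyme pairs, oeRNH1 points left of oeFlag points, lines at group means of 2 libraries. The UCK2/UCK1 ratio shows the largest distance between groups, at 0.38 and 0.39 against 1.06 and 1.09.

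Summed over genes, the de novo purine list took 1616 and 1611 TPM in the libraries labelled oeRNH1, against 1783 and 1783 TPM in those labelled oeFlag. De novo pyrimidine genes summed to 262 and 257 TPM, against 318 and 295 TPM, and deoxynucleotide genes to 735 and 756 TPM, against 676 and 650 TPM. Salvage genes summed to 658 and 641 TPM, against 675 and 686 TPM. The salvage sum was thus lower, although the median log2 fold change of these genes was 0.12. Nucleotide kinases summed to 1264 and 1238 TPM, against 1373 and 1435 TPM. The groups did not overlap in any of these sums, and only the deoxynucleotide sum was higher in the libraries labelled oeRNH1. A TPM share cannot tell less of these transcripts per cell from more of all other transcripts.

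The counts of neighbouring lists stand beside 6.3% of all tested genes called higher and 5.54% called lower. Of 22 tested genes of folate and one-carbon supply, which gives purines and thymidylate their carbon, 0 were called higher and 5 lower, with a median log2 fold change of -0.11. SLC19A1, the reduced folate carrier, had 8.19 and 8.68 TPM in the libraries labelled oeRNH1, against 14.9 and 15.1 TPM in those labelled oeFlag, and fell by 0.76 ± 0.09 (limma adjusted p = 0.0117). GCSH, of glycine cleavage, had 67.8 and 80.3 TPM, against 108 and 111 TPM, and fell by 0.56 ± 0.08. PSAT1, of serine synthesis, had 139 and 133 TPM, against 169 and 170 TPM, and fell by 0.32 ± 0.05. MTHFD1, which makes 10-formyltetrahydrofolate for the purine ring, had 130 and 133 TPM, against 154 and 160 TPM, and fell by 0.26 ± 0.05. The groups did not overlap in any of these 4 genes, nor did they in 60.7% of all tested genes.

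Carriers of nucleosides and nucleotides had 0 higher and 3 lower of 11, with a median of -0.01. Of 4 equilibrative nucleoside transporters, SLC29A1 and SLC29A2 were called lower. SLC29A1 had 43.6 and 43.7 TPM in the libraries labelled oeRNH1, against 68.4 and 70.1 TPM in those labelled oeFlag, and fell by 0.65 ± 0.05 (limma adjusted p = 0.00683). SLC29A2 had 7.39 and 7.14 TPM, against 11.99 and 12.9 TPM, and fell by 0.70 ± 0.10 (limma adjusted p = 0.0165). SLC29A3 had 6.10 and 5.44 TPM, against 5.38 and 4.87 TPM (0.14 ± 0.13), and SLC29A4 had 6.82 and 5.94 TPM, against 7.62 and 8.02 TPM (-0.26 ± 0.12), and neither was called. SLC25A6, a mitochondrial ADP/ATP carrier, had 168 and 171 TPM, against 200.5 and 208 TPM, and fell by 0.27 ± 0.04. Its relative SLC25A5 was not called, at 698 and 695 TPM against 754 and 789 TPM (-0.15 ± 0.04, limma adjusted p = 0.0540).

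Other salvage and interconversion enzymes had 1 higher and 5 lower of 18, with a median of -0.08. NME3, a further nucleoside diphosphate kinase, fell by 0.79 ± 0.08, with 11.3 and 10.8 TPM in the libraries labelled oeRNH1, against 19.8 and 19.9 TPM in those labelled oeFlag. NME4, of the same family, had 103 and 102 TPM, against 126 and 133 TPM, and fell by 0.33 ± 0.05. AK4, a mitochondrial adenylate kinase, had 49.1 and 45.6 TPM, against 60.6 and 59.1 TPM, and fell by 0.33 ± 0.06. PNP, purine nucleoside phosphorylase, was the higher one, at 191 and 185 TPM against 152 and 141 TPM (0.36 ± 0.05, limma adjusted p = 0.0185). Enzymes of nucleotide breakdown and pool cleaning had 0 higher and 2 lower of 16, with a median of -0.06, a share of calls near the 11.8% of all tested genes. DNPH1, which removes a modified deoxynucleotide, had 23.5 and 18.5 TPM in the libraries labelled oeRNH1, against 35.2 and 36.4 TPM in those labelled oeFlag, and fell by 0.75 ± 0.12. NT5C, a cytosolic 5'-deoxynucleotidase, had 23.9 and 23.1 TPM, against 32.6 and 31.2 TPM, and fell by 0.42 ± 0.07. DCTPP1, which removes unusual deoxycytidine triphosphates, was not called, at 146 and 140 TPM against 164 and 160 TPM (-0.18 ± 0.05).

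Genes of S phase, with which TYMS, TK1, RRM1 and RRM2 are known to be transcribed, had 12 higher and 0 lower of 30, with a median of 0.14. CDC6, which loads the replicative helicase, had 134 and 130 TPM in the libraries labelled oeRNH1, against 85.5 and 81.1 TPM in those labelled oeFlag, and rose by 0.66 ± 0.05. CCNE2, a cyclin E, had 39.3 and 38.8 TPM, against 23.4 and 20.2 TPM, and rose by 0.82 ± 0.09. PCNA, the sliding clamp of DNA polymerases, had 539 and 518 TPM, against 435 and 430 TPM, and rose by 0.29 ± 0.04. DTL, which directs the breakdown of replication factors, had 70.2 and 68.5 TPM, against 54.6 and 54.4 TPM, and rose by 0.34 ± 0.05. Genes of mitosis had 2 higher and 2 lower of 20, with a median of 0.06. Most S phase and mitosis genes averaged 50 TPM or more, a level at which 11.4% of all genes were called higher and 8.49% lower. The share of mitosis genes called was near the 19.9% of all genes at that level. CENPF, of the kinetochore, had 106 and 103 TPM, against 140 and 137 TPM, and fell by 0.40 ± 0.05. BUB1B, of the spindle checkpoint, had 77.5 and 71.9 TPM, against 88.4 and 88.7 TPM, and fell by 0.24 ± 0.06. ANLN, of the cleavage furrow, had 138 and 134 TPM, against 117 and 118 TPM, and rose by 0.21 ± 0.04. CDK1, the kinase of mitotic entry, had 265 and 250 TPM, against 222 and 225 TPM, and rose by 0.20 ± 0.05. MYC, named here after its values were seen, had 31.3 and 29.4 TPM in the libraries labelled oeRNH1, against 80.0 and 77.1 TPM in those labelled oeFlag (log2 -1.34 ± 0.06, limma adjusted p = 0.00223). The part of MYC and of the S phase genes in the changes of nucleotide genes was not tested.

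**Figure D4:**
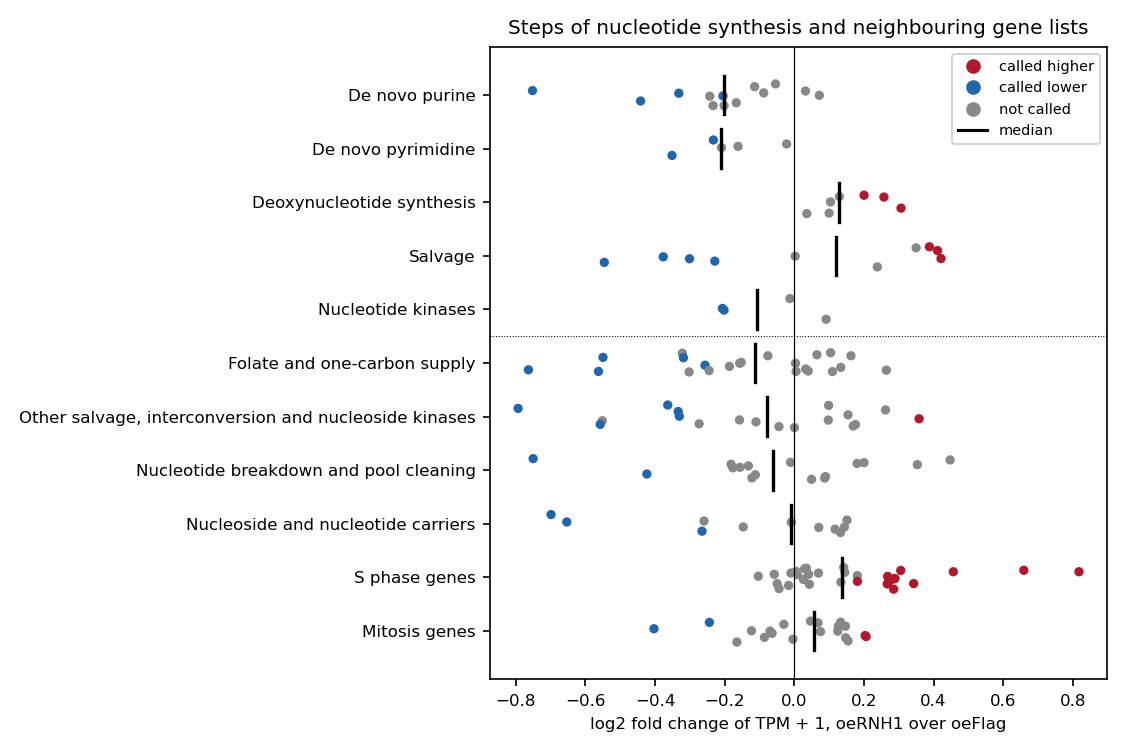
Log2 fold changes (TPM + 1, oeRNH1 over oeFlag) of tested genes in the 5 steps of nucleotide synthesis, above the dotted line, and in 6 neighbouring lists, below it. Each point is a gene, coloured by call, and black bars are medians, from -0.21 for de novo pyrimidine synthesis to 0.14 for S phase genes.

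GC content of the longest transcript was 63.6% for APRT, 62.8% for TK1 and IMPDH1, 61.7% for UCKL1, 61.2% for GUK1, 60.9% for NME2, 59.7% for DTYMK, 58.2% for PFAS, 58.0% for UCK1 and 57.7% for CAD, against a median of 48.4% over all tested genes. Of these, TK1 and UCK1 rose, GUK1 and DTYMK were not called, and the others fell. With GC correction 13 of the 18 calls were kept, 3 higher (TK1, UCK1 and UPP1) and 10 lower. PFAS then had a log2 fold change of -0.70, UCKL1 of -0.46, APRT of -0.27 and CAD of -0.30, and PAICS of -0.39.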

How the data were processed

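The authors deposited 1 table of TPM with a column for each of 4 libraries. Per the labels' protocols RNA was extracted with TRIzol and libraries came from a VAHTS mRNA-seq kit, and per the submitters' processing notes STAR and hg38 were used. The quantification program, annotation and strand setting do not appear in the sources used here. Columns summed to between 998901 and 998955 TPM. TPM holds no read totals, so no counting error could be given.

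Genes averaging 1 TPM or more were tested (15651) as log2(TPM + 1) in limma 3.58.1 (R 4.3.3) with a group term, moderated variances with an intensity trend and two-sided p adjusted by Benjamini-Hochberg over all tested genes. Estimated log2 fold changes understate changes of low genes because of the added 1. GC correction removed a spline with 4 degrees of freedom on GC content, which was known for 97.9% of tested genes and all 39 of the list. Coordinates came from GENCODE release 29 and promoters from RefSeq. Values in every library are given for RNASEH1, called genes, the largest change of each step and isozyme pairs, and up to 4 genes with the smallest p for each neighbouring list, less those not reported. SLC29A3 and SLC29A4 were added after their values were seen. Genes, lists and alternatives were chosen with earlier results of these data known. Values of some genes of the neighbouring and marker lists are not reported here. The level of 50 TPM was chosen after the data were seen.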

Additional observations from a re-analysis of the deposited data

How the results depend on the processing

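With all 4 libraries 6 genes of the list were called higher and 12 lower. No gene was called in either direction (0 and 0) by limma with no filter on low values, with variances without an intensity trend, or without any one of the 4 libraries (lowest and highest count 0), where the lone library of a group is assumed to vary like the other group. By unadjusted limma p under 0.05 there were 25 genes of the list (no filter) and 21 (no trend), more lower than higher. Over all genes the counts were 5655 of 28206 and 4337 of 15651, and by adjusted p these settings called 0 and 1. GC correction left 3 higher and 10 lower. Pseudocounts of 0.1 and 5 and robust variances each gave 6 and 12, a minimum mean of 5 TPM gave 7 and 13, and quantile normalization and median-of-ratios scaling gave 4 and 12. With the replicate number as a block the counts were 6 and 13. Deviations of replicate 1 correlated at 0.03 between the groups. With so few libraries this cannot show whether those of the same replicate number shared a culture or batch, and the labels do not say.

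The median log2 fold change kept its sign in each step. For de novo purine synthesis it was -0.16 with a pseudocount of 5, -0.22 with median-of-ratios scaling and -0.195 to -0.141 with a library left out. For de novo pyrimidine synthesis it was -0.20 with a pseudocount of 5, -0.24 with quantile normalization, -0.22 with median-of-ratios scaling, -0.22 with GC correction, and -0.20 to -0.16 with a library left out. GC correction gave 0.085 for salvage and -0.055 for nucleotide kinases. Leaving out a library gave 0.094 to 0.144 for salvage and -0.135 to -0.075 for nucleotide kinases. The sign changed for DGUOK (-0.0065 under quantile normalization, -0.013 under median-of-ratios scaling, -0.025 to 0.030 with a library left out), for TK1 over TK2 (-0.10 to 0.23 with a library left out) and for NME1 over NME2 (-0.034 under quantile normalization, -0.011 to 0.020 with a library left out). DGUOK was not called with all 4 libraries, and the ratios of both pairs overlapped between groups. The cause was not tested.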
